A study of Mus musculus with 9 samples.

Results

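The genes described here are the protein-coding genes expressed in brain cortex of 2 inbred mouse strains, WSB/EiJ (WSB) and C57BL6/J (B6). Of 54532 gene identifiers in the deposited table, 22046 were protein-coding, and 11611 of these were members, with a mean of at least 1 FPKM over the 6 libraries of both strains and a position outside the stretch of chromosome 8 from 36.02 to 78.11 Mb. FPKM is the number of fragments assigned to a gene, divided by its length in kilobases and by a measure of library size. The coding genes left out were 10260 below 1 FPKM and 175 in that stretch. The mean over both strains chose the members, so the strain labels did not enter the choice, but 160 members reached 1 FPKM only in B6 and 154 only in WSB, and such genes had to differ. Just inside the limit stood Mterf1b at 1.00075 FPKM, and just outside Kirrel at 0.999667 and Mapk15 at 0.999617.

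The series holds cortex RNA of 9 male mice aged 8 to 12 weeks, 3 of each of the strains B6, C3H and WSB, sequenced to ask which genes of a chromosome 8 locus might change infarct size after stroke. B6 is the strain on which the mouse reference genome was built, and WSB is an inbred strain derived from wild mice. The strains came from the Jackson Laboratory and were bred locally, and the labels name no transgene and no stroke surgery in these mice. Each library is 1 mouse, named here by strain and replicate number.

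Cortex is a mixture of excitatory and inhibitory neurons, astrocytes, oligodendrocytes, microglia and vessel cells, and most abundant transcripts come from neurons and glia shared by every mouse strain. A gene can differ between inbred strains through its regulation, its copy number or its sequence. Many housekeeping genes also have processed pseudogenes, near-identical copies made by reverse transcription of the mature messenger RNA and inserted elsewhere in the genome, and a short read from one may fit the other as well.

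The libraries held 17651630 to 21562429 reads on genes in B6 and 16317439 to 17784118 in WSB, and the median member had 585 to 753 reads in a library. On the log2 scale the libraries correlated across genes at r = 0.983 to 0.992 within a strain and 0.954 to 0.970 between strains, where genes are not independent replicates. The tissue label held: all 15 markers of excitatory neurons were members, and Slc17a7, the vesicular glutamate transporter of these cells, lay at 281 ± 37.5 FPKM (SD, n = 3) in B6 and 265 ± 23.8 in WSB. Genes of neighbouring tissue varied between mice. The summed level of 8 choroid plexus markers was 108, 843 and 97.5 FPKM in the B6 mice and 584, 508 and 664 in the WSB mice, so that B6 replicate 2 stood apart from its group. For 17 markers of striatal medium spiny neurons the sums were 1069, 605 and 299 FPKM in B6 and 227, 424 and 519 in WSB, highest in B6 replicate 1. No gene of either list passed the test below, although 2 choroid plexus genes did without B6 replicate 2, and their part in other results was not tested.

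Of the 11611 members, 654 differed between the strains at an adjusted p under 0.05 (5.63% of members, against 5.9% of all 20746 genes tested), 263 of them higher in WSB (2.27%, against 2.81% of all genes tested) and 391 lower (3.37%, against 3.09%). The test was limma on log2(FPKM + 0.1), two-sided, with Benjamini-Hochberg adjustment over all genes tested. Among the 11297 members at 1 FPKM or more in both strains, 578 (5.12%) differed. Of the 314 that reached 1 FPKM in 1 strain only, 76 (24.2%) did, a share that the choice of members favours. Ly6c1, Myoc, Pttg1, Sod3, H2-D1, H2-Ab1, H2-Eb1, Aldh3b2, Adad2 and Mael, described below, are among these 314. So are Eno1b, Tpm3-rs7, Hmga1b, Tagap, Tuba1c, Gm11361, Gm4737, Gm20075 and Gm14305. At an unadjusted p under 0.05 there were 2453 members. In 3229 members (27.8%, against 26.0% of all genes tested) the 3 WSB values did not overlap the 3 B6 values, and all 654 were among them. Most differences were small. The median gene that was higher in WSB was 1.57 times its B6 level and the median lower gene 1.66 times below it, while 169 genes passed 2-fold and 29 passed 8-fold. The share that differed was 5.99%, 5.79%, 5.96% and 4.79% in 4 groups of equal size, ordered from the lowest level to the highest. With 3 mice a strain the count depended on each of them. It was 396, 294 and 319 without B6 replicates 1, 2 and 3 and 365, 379 and 373 without WSB replicates 1, 2 and 3, and 234 genes differed in all 6 of these fits.

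**Figure D1:**
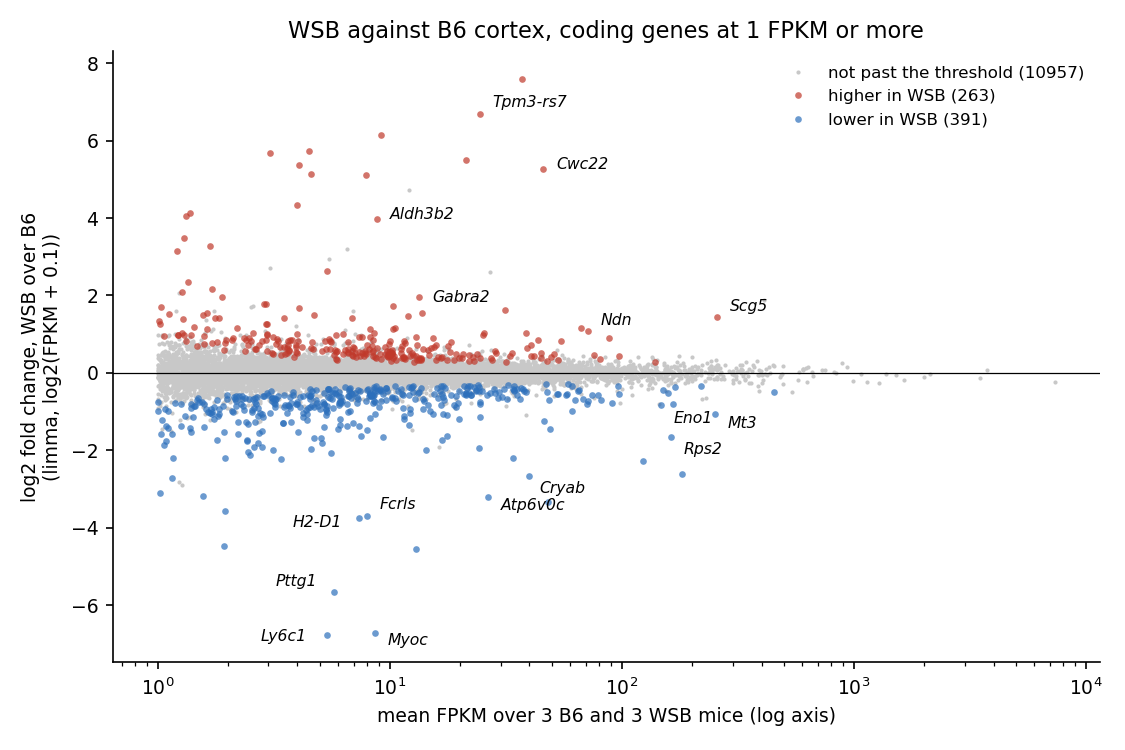
Each point is 1 of the 11611 coding genes, placed by its mean FPKM over 3 B6 and 3 WSB mice on a log axis and by its log2 fold change, WSB over B6, from limma. The 263 genes higher in WSB are red, the 391 lower in WSB are blue and the rest are grey, and the 29 genes past 8-fold lie outside 3 and -3 on the vertical axis.

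Genes with a near-identical copy elsewhere in the genome were frequent among the large differences. A copy was another gene, not overlapping the first, whose transcript matched at 95% identity or more over at least 200 bases and 50% of the shorter transcript. Of all members 8.88% had one, of the 654 genes that differed 18.3%, of the 169 past 2-fold 34.3%, and of the 29 past 8-fold 19 did. The genes below are shown because long stretches of gene and copy are identical, so that a read can fit both. The stretches are 90 coding bases of the gene and the matching bases of the copy, 5′ to 3′ in the direction of the gene, taken from the GENCODE M21 transcripts of GRCm38, with the bases that differ in capitals. Tpm3 encodes a tropomyosin of the actin filament and lies on chromosome 3 from 90072649 to 90100902, and its intronless relative Tpm3-rs7 lies on chromosome 14 from 113314608 to 113316754. Rps3a1 encodes a protein of the small ribosomal subunit and lies on chromosome 3 from 86137940 to 86142702, and its processed pseudogene Rps3a3 lies on chromosome 13 from 108670603 to 108671397. Atp6v0c encodes the ring subunit of the proton pump that acidifies lysosomes and synaptic vesicles and lies on chromosome 17 from 24163866 to 24169702, and its processed pseudogene Atp6v0c-ps2 lies on chromosome 6 from 37806086 to 37806550. Over the aligned transcripts the first pair differed at 13 of 2108 bases, beside 6 gap positions, the second at 9 of 795 and the third at 1 of 465.
Tpm3: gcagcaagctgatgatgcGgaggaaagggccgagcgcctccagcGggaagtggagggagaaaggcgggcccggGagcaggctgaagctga
Tpm3-rs7: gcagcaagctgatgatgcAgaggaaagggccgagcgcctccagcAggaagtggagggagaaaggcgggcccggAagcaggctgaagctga
Rps3a1: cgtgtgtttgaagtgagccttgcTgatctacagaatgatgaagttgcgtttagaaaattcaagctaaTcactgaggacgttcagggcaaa
Rps3a3: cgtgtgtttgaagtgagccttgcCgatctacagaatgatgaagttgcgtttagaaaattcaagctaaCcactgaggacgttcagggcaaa
Atp6v0c: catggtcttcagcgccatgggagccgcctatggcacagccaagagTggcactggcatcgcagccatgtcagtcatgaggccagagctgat
Atp6v0c-ps2: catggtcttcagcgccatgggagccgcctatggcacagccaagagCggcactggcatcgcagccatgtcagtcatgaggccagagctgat

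In all 3 pairs the gene fell and its copy rose. Tpm3 had 31.8, 34.5 and 35.2 FPKM in the B6 mice and 14.6, 16.5 and 14.8 in the WSB mice, while Tpm3-rs7 had 0.312, 0.346 and 0.459 in B6 and 51.2, 45.9 and 48.7 in WSB. Neither gene's strains overlapped. With the reads of both counted on the length of Tpm3, the pair had 31.9, 34.6 and 35.4 FPKM in B6 and 32.7, 32.7 and 32.03 in WSB, and the log2 fold change went from -1.14 for Tpm3 alone to -0.064 (SE 0.07, adjusted p = 0.643 by limma). Atp6v0c had 48.5, 46.7 and 49.1 FPKM in B6 and 4.51, 5.36 and 5.47 in WSB, a 9.40-fold fall, and Atp6v0c-ps2 had 5.52, 7.56 and 4.94 in B6 and 347, 362 and 339 in WSB. Summed with its 2 copies it had 49.2, 47.7 and 49.9 FPKM in B6 and 52.3, 55.1 and 52.1 in WSB (log2 fold change 0.12, SE 0.06, adjusted p = 0.312 by limma). The sum thus did not pass the test where the gene alone did. Rps3a1 had 299, 308 and 327 FPKM in B6 and 53.6, 58.5 and 41.3 in WSB, and Rps3a3 was at 0, 0.187 and 0 in B6 and 127, 134 and 120.2 in WSB. Here the sum over Rps3a1 and 6 copies still fell, with a log2 fold change of -0.80 against -2.62 alone (adjusted p = 8.75e-04 by limma).

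In all, 59 of the 654 genes had a copy that passed the test in the opposite direction. The gene was the lower one in WSB in 48 of them and the higher one in 11. Of the 73 pairs of a gene and such a copy, 52 had a pseudogene of any kind as the copy. Members that are copies of each other, such as Tpm3 and Tpm3-rs7, count from both sides. Their median absolute log2 fold change was 1.07 alone and 0.35 with copies summed, and 33 passed 2-fold alone against 6 summed. After summing, 23 still differed in their first direction, 4 differed in the other and 32 did not pass. Among them were Eno1, the glycolytic enzyme enolase, with 176, 192 and 196 FPKM in B6 and 107, 110.2 and 102 in WSB, whose copies Eno1b and Gm4735 were at most 0.588 FPKM in any B6 mouse and at least 62.9 in any WSB mouse. Enolase with its copies summed fell by less (log2 fold change -0.32 against -0.82, adjusted p = 0.0404 by limma). Hmga1, a chromatin protein, had 21.4, 25.4 and 25.2 FPKM in B6 and 9.23, 12.4 and 12.1 in WSB, and its copy Hmga1b had 0.103, 0.274 and 0.115 in B6 and 15.1, 18.9 and 20.4 in WSB, with a summed log2 fold change of 0.052. Psmb5, a catalytic subunit of the proteasome, had 95.2, 103 and 103 in B6 and 57.5, 71.9 and 55.2 in WSB, and its pseudogene Gm3375 had 0.491, 0.498 and 0.236 in B6 and 46.4, 49.7 and 50.8 in WSB. Their sum had a log2 fold change of 0.056 and did not pass (adjusted p = 0.761 by limma). In mt-Nd3, a subunit of respiratory complex I encoded by the mitochondrion, the direction turned. It had 102, 77.3 and 82.8 FPKM in B6 and 8.81, 10.8 and 6.29 in WSB, its nuclear copy Gm28438 on chromosome 1 had 12.95, 13.9 and 17.3 in B6 and 167, 156 and 156 in WSB, and the log2 fold change went from -3.35 alone to 0.72 summed. Values of these 59 genes are therefore uncertain on their own. Of the 61 other genes with a copy, 50 kept their direction past the threshold with copies summed and 11 did not pass.

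**Figure D2:**
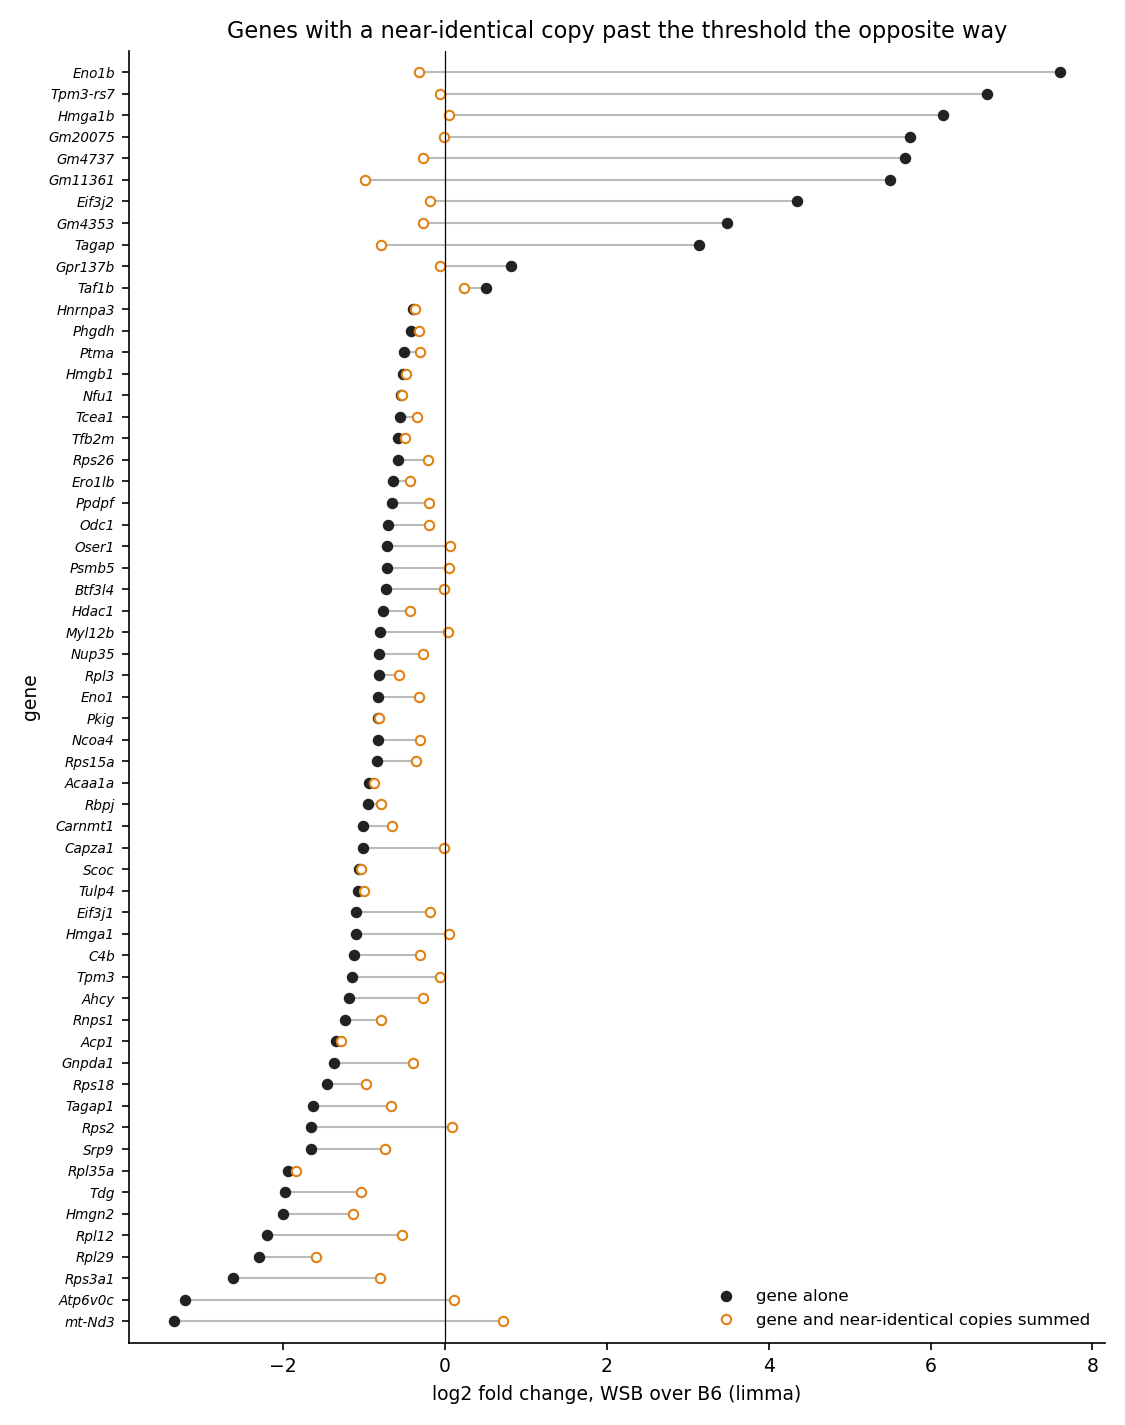
For each of the 59 genes with a near-identical copy that passed the test in the opposite direction, the black point is the log2 fold change, WSB over B6, of the gene alone and the open point that of the gene and its copies summed. The open points have a median absolute value of 0.35 against 1.07 for the black points. When summed, 23 genes passed the test in their first direction, 4 in the other and 32 not at all.

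Cytosolic ribosomal protein genes were a group of this kind. Of 78 members 9 differed (11.5%, against 5.63% of all members), all lower in WSB. They were Rps3a1, Rpl29, Rpl12, Rpl35a, Rps2, Rps18, Rps15a, Rpl3 and Rps26, and each of the 9 had near-identical copies. Such copies are common in this group. Of 165 members with ribosomal protein in the description, mitochondrial ones among them, 93 had a copy. The list's median log2 fold change was 0.03, against -0.0014 for all members, while its mean was -0.16. Rps2 fell from 217, 260.1 and 265 FPKM in B6 to 82.2, 88.7 and 65.2 in WSB, and its pseudogene Rps2-ps13 on chromosome X went from 0.0633, 0 and 0.0532 to 338, 412 and 395. With its 30 copies summed Rps2 had a log2 fold change of 0.092 (SE 0.10, adjusted p = 0.671 by limma), and Rps15a and Rps26 did not pass either. The other 6, Rpl35a, Rpl29, Rps18, Rps3a1, Rpl3 and Rpl12, stayed lower and past the threshold when summed, with values of -1.83, -1.58, -0.98, -0.80, -0.57 and -0.52. Of 36 proteasome genes Psmb5 alone passed and of 22 glycolytic genes Eno1 alone, both with the copies described above. None of the 75 nuclear-encoded genes of oxidative phosphorylation passed the test, where limma gave 7 at an unadjusted p under 0.05, and 3 passed without WSB replicate 2. Of the 13 genes encoded by the mitochondrion mt-Co2 and mt-Nd4l were higher and mt-Nd3 lower. Like mt-Nd3, mt-Co2 and mt-Nd4l have nuclear copies on chromosome 1, identical over the aligned bases. Gm28661, the copy of mt-Co2, had a mean of 49.7 FPKM in B6 and 138 in WSB. Gm10222, the copy of mt-Nd4l, had 12.8 and 25.7. With copies summed mt-Co2 and mt-Nd4l stayed higher (log2 fold changes 1.23 and 1.42, adjusted p = 0.0159 and 0.0451 by limma). The count of 3 (23.1% of the list) was 2, 2 and 1 when B6 replicates 1, 2 and 3 were left out in turn, and 1, 1 and 3 for WSB replicates 1, 2 and 3. In these 6 fits mt-Co2 and mt-Nd4l each passed in 2.

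Cwc22, a splicing factor gene in a segment of chromosome 2 whose copy number is known to vary among mouse strains, rose without a copy that fell. It had 2.46, 2.21 and 1.99 FPKM in the B6 mice and 101, 90.1 and 77.4 in the WSB mice, 40.4 times higher (log2 fold change 5.27, SE 0.12, adjusted p = 9.70e-07 by limma). Its 7 annotated copies added almost nothing to either strain, and the summed value was the same to 2 decimals.

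Without any near-identical copy, 111 genes differed by 2-fold or more, 39 higher and 72 lower in WSB, and 81 of them passed in all 6 fits without 1 mouse. The largest falls among all members that had no copy moving against them were in Ly6c1, Myoc and Pttg1. Ly6c1 encodes a surface protein of brain endothelial cells and some blood leukocytes. It had 10.5, 10.95 and 10.8 FPKM in the B6 mice, from 316 to 387 reads a library, and was at 0 reads in every WSB mouse, at least 105-fold lower when each WSB library is given the limit of 3 reads. Myoc, the secreted glycoprotein myocilin, had 13.1, 19.98 and 18.5 FPKM in B6 and 0.116, 0.0278 and 0.0528 in WSB (log2 fold change -6.72, SE 0.25, adjusted p = 8.17e-06 by limma). Pttg1, the mitotic protein securin, had 11.4, 11.6 and 11.03 FPKM in B6 and 0.150, 0.116 and 0.109 in WSB (90.6-fold lower). All 3 lay above 10 FPKM in every B6 mouse and below 1 FPKM in every WSB mouse, so they became members through B6 only. Hbb-bt, an adult beta globin, fell from 23.4, 23.5 and 27.8 to 1.11, 1.89 and 0.389 FPKM, but summed with its near-identical neighbour Hbb-bs it had a log2 fold change of -0.062 (adjusted p = 0.806 by limma).

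Cryab, the small heat shock protein alpha B-crystallin that glia express strongly, was the most abundant gene without a copy to fall by more than 4-fold. It had 67.03, 65.5 and 73.8 FPKM in the B6 mice and 8.17, 14.3 and 10.7 in the WSB mice (log2 fold change -2.66, SE 0.18, adjusted p = 2.32e-04 by limma). No other gene among 41 chaperones and heat shock proteins passed the test, and the list's median log2 fold change was -0.02. Sod3, the extracellular superoxide dismutase, fell 4.66-fold from 3.90, 4.40 and 4.02 to 0.643, 0.973 and 1.03 FPKM, and the detoxifying enzyme Gstt1 fell from a mean of 6.53 to 3.77. Nqo1, a quinone reductase, rose from 2.48, 3.48 and 2.75 to 4.65, 5.32 and 5.53. These were the 3 that differed among 43 glutathione and antioxidant genes, a list whose median was 0.00 and whose mean was -0.05. The count of 3 (6.98%, against 5.63% of all members) was 2, 2 and 1 when B6 replicates 1, 2 and 3 were left out in turn, and 2, 2 and 1 for WSB replicates 1, 2 and 3. Adamts4, a protease that cuts the proteoglycans of the brain matrix and is made by oligodendrocytes, fell from 5.17, 3.61 and 3.78 to 0.838, 1.08 and 1.19 FPKM. A further fall, in a gene picked here after its values were seen, was in Aldh1a1, a retinaldehyde dehydrogenase (11.8 ± 0.448 FPKM in B6 and 4.18 ± 0.286 in WSB, SD, n = 3). Mt3, the brain metallothionein that binds zinc, was among the most abundant transcripts to fall, from 262, 381 and 382 to 146, 202 and 143 FPKM, but passed in only 2 of the 6 fits without 1 mouse.

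The rises without a copy reached high levels in fewer genes. Aldh3b2, an aldehyde dehydrogenase, had 1.02, 0.856 and 0.964 FPKM in the B6 mice and 14.6, 13.5 and 22.1 in the WSB mice (log2 fold change 3.98, SE 0.19, adjusted p = 3.36e-05 by limma). Pla2g4e, a cytosolic phospholipase A2 that makes N-acyl phospholipids, rose from 1.39, 1.52 and 1.33 to 9.26, 9.75 and 8.81 FPKM, and Itih3, a heavy chain that binds hyaluronan, from 5.08, 5.47 and 5.19 to 16.1, 30.5 and 17.8. In each of the 3 the lowest WSB mouse was far above the highest B6 mouse. Gabra2, the alpha 2 subunit of the GABA-A receptor, in which B6 mice of the Jackson colony are known to carry an intronic deletion, had 7.15, 7.58 and 5.95 FPKM in B6 and 25.1, 20.9 and 16.1 in WSB, 3.003 times higher (adjusted p = 0.00227 by limma). It was the 1 gene of 15 GABA-A receptor subunits to pass the test. The next 3 genes were singled out here after their values were seen. Scg5, the neuroendocrine chaperone of prohormone convertase 2, was the most abundant member past 2-fold to rise, from 138, 134 and 145 FPKM in B6 to 371, 378 and 376 in WSB (log2 fold change 1.43, SE 0.07, adjusted p = 3.15e-05 by limma). Ndn, the imprinted neuronal gene necdin, rose from 40.2, 49.7 and 46.7 to 83.2, 129 and 82.1, and Ahi1, a protein of the primary cilium, from 25.8, 28.1 and 21.5 to 51.5, 60.9 and 43.04. Adad2 and Mael, which are known as genes of the male germ line, were below 0.21 FPKM in every B6 mouse and reached 2.15, 3.24 and 2.64 and 3.26, 2.33 and 2.08 FPKM in the WSB mice.

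**Figure D3:**
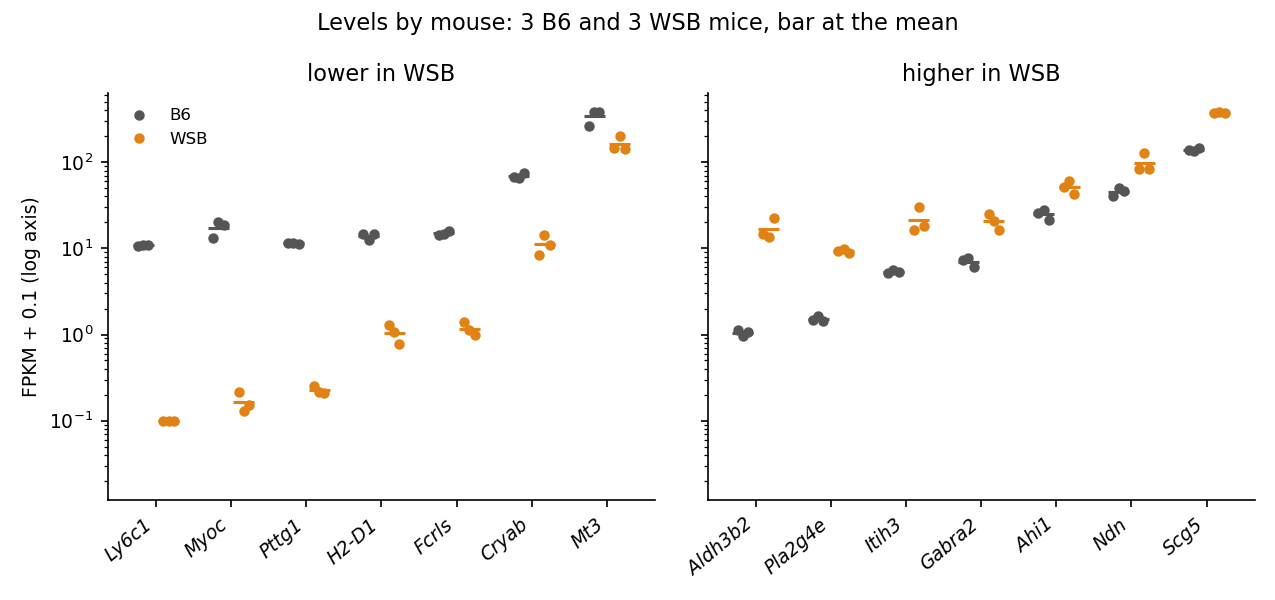
Points are single mice, 3 of each strain, and bars the strain means, for 7 genes lower in WSB (left) and 7 higher in WSB (right), as FPKM + 0.1 on a log axis. In none of the 14 genes do the strains overlap, and the gap is widest for Ly6c1, at 0 in all 3 WSB mice, and narrowest for Mt3, Ahi1 and Ndn.

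Among 17 lists of cell type markers, those of microglia and mature oligodendrocytes held the most genes that differed, all lower in WSB. In bulk tissue, fewer cells of a type and less RNA per cell cannot be told apart. Microglia, the resident immune cells of the brain, had 11 of 24 markers lower (45.8%, against 5.63% of all members), none higher, and a median log2 fold change of -0.37, with 19 of the 24 below 0. Summed over the 24, the level was 374, 344 and 361 FPKM in the B6 mice and 260.0, 271 and 259 in the WSB mice, with no overlap. The markers did not fall evenly. Fcrls, an Fc receptor-like protein of microglia, had 14.3, 14.5 and 15.9 FPKM in B6 and 1.29, 1.04 and 0.891 in WSB, 13.9-fold lower, and C1qc, a chain of the first complement component, 25.4, 24.9 and 26.9 in B6 and 7.82, 8.04 and 7.26 in WSB, 3.34-fold lower. The other 9 fell by between 1.31-fold (Csf1r, the growth factor receptor on which microglia depend for survival, 19.6 ± 0.772 FPKM in B6 and 14.96 ± 0.299 in WSB, SD, n = 3) and 1.97-fold (Adgre1, the surface receptor F4/80). They include Trem2 and its signalling partner Tyrobp, a receptor pair for lipids and debris, at 3.81 and 17.4 FPKM in B6 and 2.39 and 10.5 in WSB. The count of 11 was 6, 3 and 6 when B6 replicates 1, 2 and 3 were left out in turn, and 5, 6 and 4 for WSB replicates 1, 2 and 3. Outside the list, and picked here after their values were seen, the myeloid genes Fcgr3, an Fc receptor (7.77 to 2.35 FPKM), and Mpeg1, a pore-forming protein of phagocytes (6.14 to 2.62), fell too.

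Of 24 markers of mature oligodendrocytes and myelin, 5 (20.8%, against 5.63% of all members) were lower in WSB and none higher. The 5 were Mal, Tspan2, Mobp, Qdpr and Cldn11. Of the 24, 23 had a log2 fold change below 0, with a median of -0.66. The strains did not overlap in 18 of the 24, where this held for 27.8% of all members. The summed level was 1609, 1337 and 1354 FPKM in the B6 mice and 768, 1029 and 1057 in the WSB mice. Mobp, a structural protein of central myelin, had 126, 106 and 108 FPKM in B6 and 50.5, 76.6 and 74.9 in WSB, and Mal, a proteolipid of myelin membrane, 97.04, 70.9 and 74.00 in B6 and 31.7, 42.5 and 48.7 in WSB. In both genes WSB replicate 1 was the lowest of the 6 mice. The count of 5 was 0, 0 and 0 when B6 replicates 1, 2 and 3 were left out in turn, and 3, 0 and 3 for WSB replicates 1, 2 and 3. The striatal list, of a region rich in white matter, had a median of -0.65 and also ran lower in WSB, with overlapping sums given above, and its part in the myelin values was not tested. Of 12 markers of oligodendrocyte precursors none passed, with limma giving 4 at an unadjusted p under 0.05, and their sums were 163, 157 and 162 in B6 and 118, 137 and 138 in WSB.

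Neuronal and astrocyte lists held few genes that differed. None of 15 excitatory neuron markers and none of 17 deep layer markers passed the test, where limma gave 1 and 2 at an unadjusted p under 0.05, and their medians were -0.01 and -0.04. Of 15 upper layer markers Rspo1, a secreted activator of Wnt signalling, rose from 4.24, 3.65 and 6.34 to 13.6, 12.5 and 21.3 FPKM, and of 24 interneuron markers the neuropeptide Cort fell from 12.04, 15.1 and 19.96 to 8.26, 8.70 and 4.93. Cort passed in none of the 6 fits without 1 mouse. The interneuron list as a whole lay on the other side, with 17 of 24 log2 fold changes above 0, a median of 0.12, and a summed level of 1155, 1143 and 1216 FPKM in the B6 mice and 1325, 1362 and 1226 in the WSB mice, which do not overlap. Of 22 astrocyte markers Glul, the glutamine synthetase that clears glutamate, fell from 555, 491 and 542 to 383, 392.3 and 353 but passed in 1 of those 6 fits, and the list had a median of 0.03 and a mean of -0.02. Wfs1, a protein of the endoplasmic reticulum strong in hippocampal area CA1 and also made in cortical neurons, rose from 30.7, 32.96 and 28.9 to 56.4, 58.1 and 53.5 and was the 1 of 14 hippocampal markers to pass. Of the 14, 10 had a log2 fold change above 0, with a median of 0.25. Their summed level was 110.4, 161 and 169 FPKM in the B6 mice and 183, 207 and 176 in the WSB mice, higher in every WSB mouse, and its part in other results was not tested. Of 20 endothelial markers 3 were lower (15%, against 5.63% of all members), Ly6c1, the organic anion transporter Slco1a4 (3.49 to 2.27 FPKM) and Itm2a (25.3 to 17.5). The summed level of the endothelial list was 354, 384 and 366 FPKM in B6 and 376, 385 and 362 in WSB, which overlap. Among red blood cell genes Hba-a1, an alpha globin with a near-identical copy, rose from 58.5, 55.2 and 68.5 to 99.5, 127 and 118. The smooth muscle actin Acta2, the fibronectin gene Fn1 and the chemerin gene Rarres2 were the single genes that differed among 11 mural, 13 fibroblast and 8 ependymal markers, Acta2 and Fn1 lower and Rarres2 higher. Of the 8 ependymal log2 fold changes 7 lay above 0, with a median of 0.68. Their summed level was 13.4, 18.3 and 12.3 FPKM in B6 and 18.1, 30.2 and 20.7 in WSB, which overlap. Without 1 mouse, Slco1a4 and Rarres2 passed in 0 of the 6 fits, Fn1 in 1 and Acta2 in 2.

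**Figure D4:**
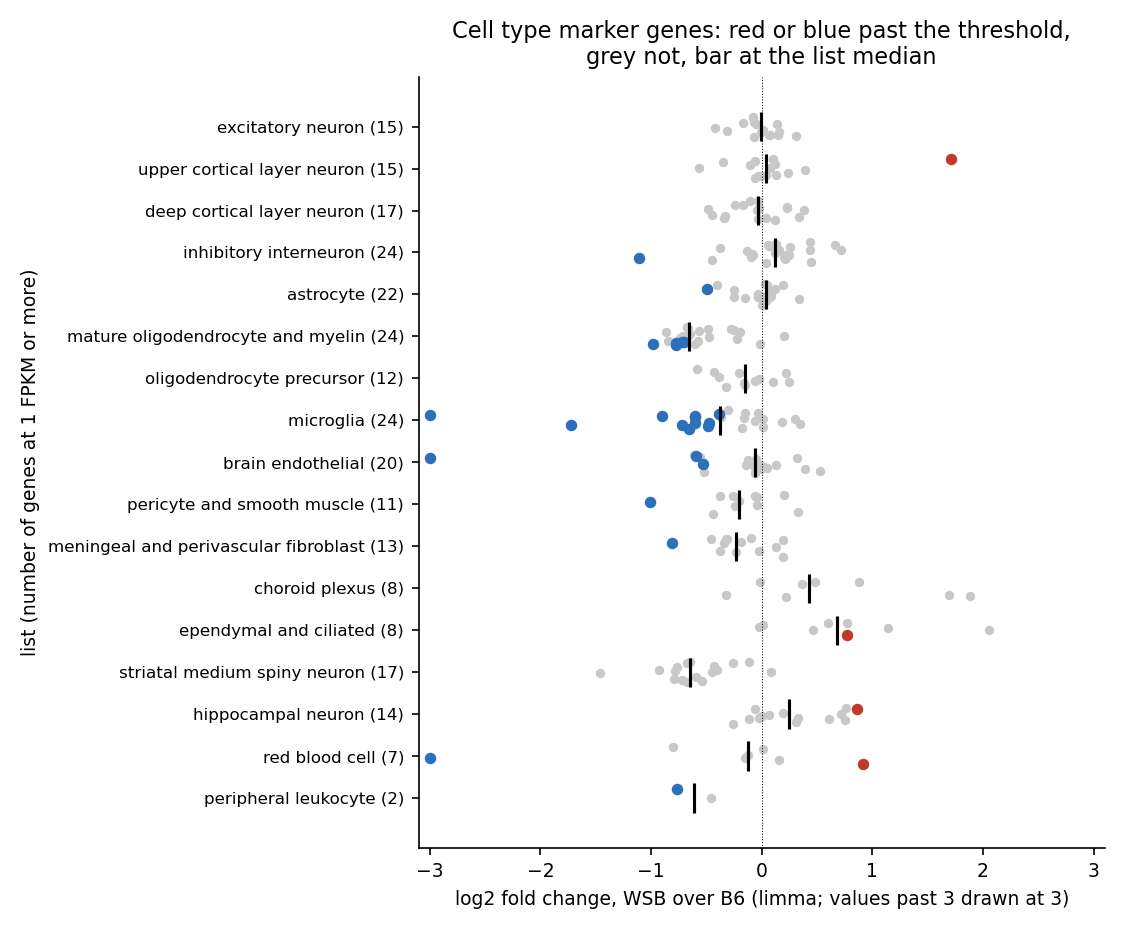
Each point is 1 marker gene with its log2 fold change, WSB over B6, red or blue where it passed the test and grey where it did not, with a bar at the median of each of the 17 lists. The microglia list holds 11 blue points and the oligodendrocyte list 5, both with the bar left of 0. The excitatory, upper layer, deep layer and astrocyte lists centre near 0. The bar of the striatal list lies left, at -0.65. The ependymal, choroid plexus, hippocampal and interneuron bars lie right, at 0.68, 0.42, 0.25 and 0.12.

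Genes of antigen presentation were among the functional lists with the largest shares that differed. Of 13 members of the class I pathway 5 were lower in WSB (38.5%, against 5.63% of all members). Of 5 members of class II 3 were lower and 1 higher (80%). Class I molecules show peptides from inside the cell to T cells and are among the most variable genes between mouse strains. The gene coordinates are those of the reference built on B6, and the part of sequence differences in the values below was not tested. H2-D1 had 14.5, 12.3 and 14.6 FPKM in the B6 mice and 1.19, 0.963 and 0.679 in the WSB mice (log2 fold change -3.76, SE 0.19, adjusted p = 4.16e-05 by limma), and H2-K1 11.1, 11.1 and 9.95 in B6 and 3.55, 4.58 and 4.05 in WSB. B2m, the light chain shared by all class I molecules and encoded on another chromosome, fell from 85.9, 77.6 and 88.01 to 60.7, 49.4 and 48.2. The nonclassical H2-T22 and H2-T23 fell from means of 5.32 and 5.57 to 2.86 and 3.47. The other 8 did not pass, and the median of the list was -0.05. In class II, H2-Eb1 had 2.69, 3.01 and 2.77 FPKM in B6 and 0.457, 0 and 0.509 in WSB, H2-Ab1 1.09, 2.33 and 1.92 in B6 and 0.808, 0.353 and 0.435 in WSB, and the invariant chain Cd74 3.76, 5.62 and 4.99 in B6 and 2.81, 2.79 and 2.60 in WSB, while the peptide exchanger H2-DMa rose from 9.77, 8.33 and 8.55 to 11.3, 11.5 and 13.3. The class II count of 4 was 3, 0 and 0 when B6 replicates 1, 2 and 3 were left out in turn, and 2, 1 and 1 for WSB replicates 1, 2 and 3. By the words of the gene descriptions, 8 of 12 members named for histocompatibility differed (66.7%), the highest share of any description searched. H2-D1, H2-Ab1 and H2-Eb1 reached 1 FPKM only in B6, so the choice of members favours this share and those of class I and class II. Of 10 complement genes 4 differed (40%). C1qc, C1qb and C4b were lower, and Cd59a, an inhibitor of the membrane attack complex, was higher, from 3.05, 5.30 and 2.95 to 8.17, 10.5 and 11.1 FPKM. C4b has a near-identical copy, C4a, that rose, and the sum of both did not pass (log2 fold change -0.31, adjusted p = 0.258 by limma). The complement count of 4 was 2, 3 and 2 when B6 replicates 1, 2 and 3 were left out in turn, and 3, 3 and 2 for WSB replicates 1, 2 and 3. None of 14 interferon-stimulated genes passed, with 3 at an unadjusted p under 0.05 by limma.

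Of 19 circadian clock genes 5 (26.3%, against 5.63% of all members) were lower in WSB and none higher. They were the repressors Per1, Per2, Nr1d1 and Ciart and the output factor Dbp. Dbp had 32.2, 32.3 and 27.7 FPKM in B6 and 15.8, 16.9 and 21.98 in WSB, and Ciart 7.48, 6.37 and 6.99 in B6 and 3.38, 4.29 and 3.66 in WSB, while Per1 fell least, from 25.1, 24.8 and 24.03 to 19.7, 19.1 and 19.9. The summed level of the list was 343, 315 and 329.8 FPKM in B6 and 266, 258 and 287 in WSB. The count of 5 was 1, 1 and 2 when B6 replicates 1, 2 and 3 were left out in turn, and 1, 1 and 3 for WSB replicates 1, 2 and 3. Transcripts of the clock change over the day, and since the time of tissue collection was not given in the sources used here, its part in the result was not tested. Egr1, an immediate early gene that neuronal activity induces, fell from 102, 75.5 and 90.2 to 56.04, 56.4 and 65.96 FPKM, and apart from Per1 it was the only one of 26 such genes to pass. The count of 2 (7.69% of the list) was 0, 1 and 0 when B6 replicates 1, 2 and 3 were left out in turn, and 0, 0 and 0 for WSB replicates 1, 2 and 3.

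**Figure D5:**
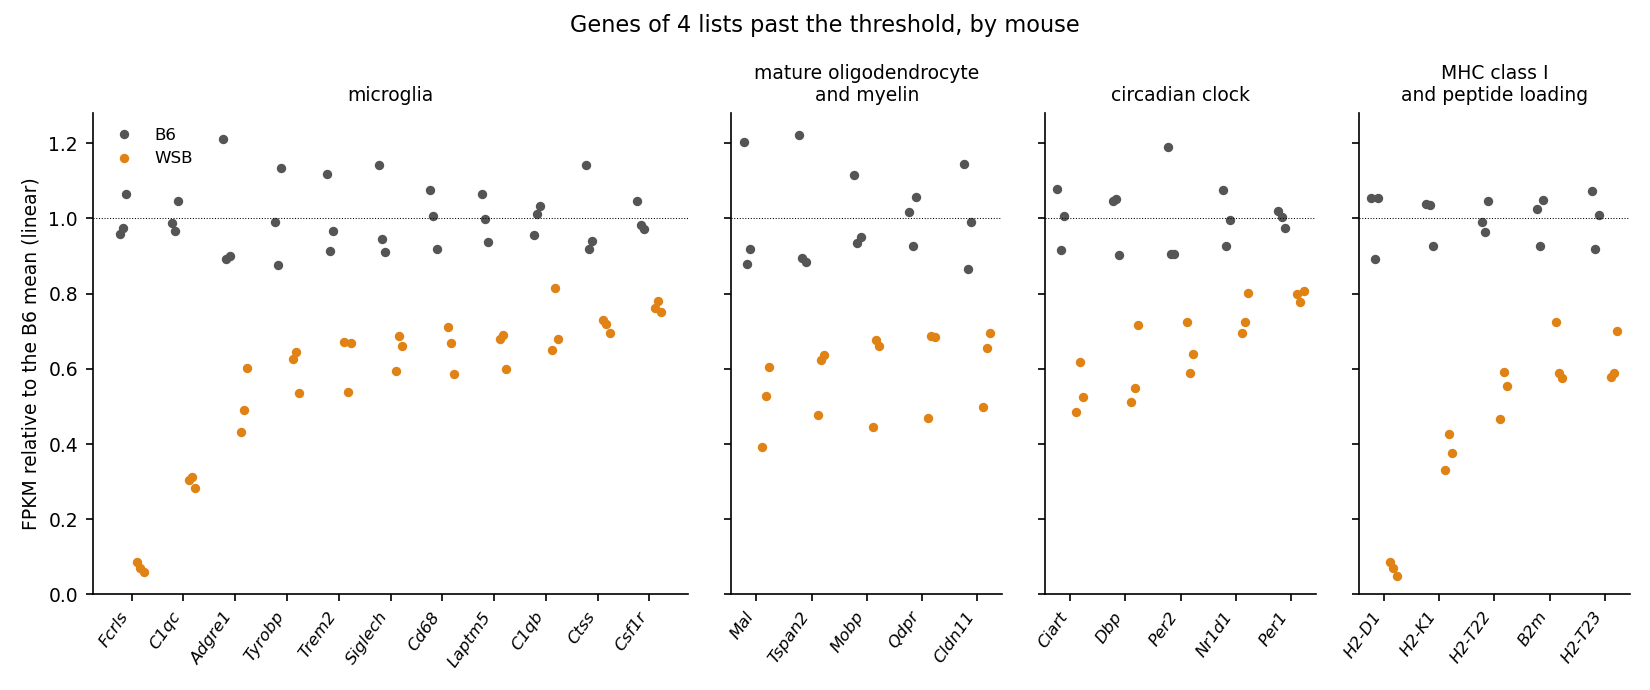
Points are single mice, as FPKM divided by the mean of the 3 B6 mice on a linear axis, for the genes that passed the test in the lists of microglia (11), mature oligodendrocytes (5), circadian clock (5) and MHC class I (5). Every WSB point lies below every B6 point of its gene, and Fcrls, C1qc, H2-D1 and H2-K1 lie lowest within their lists.

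Channel, transmitter and metabolic genes moved in both directions. Of 56 potassium channel genes 3 were higher and 4 lower in WSB (12.5%, against 5.63% of all members). Kcnab3, a beta subunit of the voltage-gated channels, rose from 16.8, 13.6 and 20.8 to 31.7, 32.8 and 35.4 FPKM, and the pacemaker channel Hcn3 from 2.58, 2.74 and 2.88 to 3.92, 5.23 and 4.53. Kcnq3, a subunit of the M current that restrains repeated firing, fell from 11.4, 9.41 and 9.42 to 7.90, 6.35 and 5.93, and Kcnj11, the pore of the ATP-sensitive channel, from 12.3, 12.8 and 15.02 to 8.81, 9.41 and 9.23. The count of 7 was 3, 2 and 3 when B6 replicates 1, 2 and 3 were left out in turn, and 3, 3 and 4 for WSB replicates 1, 2 and 3. None of 24 voltage-gated sodium and calcium channel genes passed, with 2 at an unadjusted p under 0.05 by limma, and none of 29 postsynaptic scaffold genes, with 6. Of 23 ionotropic glutamate receptor subunits Grin2b fell from 9.99, 9.91 and 10.3 to 8.14, 7.27 and 6.30, and of 33 genes of vesicle release Napb, a partner of the SNARE recycling ATPase, was the 1 that fell. Without 1 mouse Grin2b passed in 1 of the 6 fits and Napb in 3. Of 21 genes that make or move glutamate and GABA, the glutamate transporter Slc1a6 rose from 3.58, 4.65 and 3.71 to 7.71, 7.33 and 6.31 and glutamate dehydrogenase, Glud1, from 71.5, 67.9 and 72.4 to 91.3, 86.9 and 91.2, while Glul fell as given above. The count of 3 (14.3% of the list) was 2, 1 and 0 when B6 replicates 1, 2 and 3 were left out in turn, and 0, 3 and 1 for WSB replicates 1, 2 and 3. The summed level of these 21 genes was 1473, 1406 and 1499 FPKM in B6 and 1327, 1299 and 1275 in WSB, lower in every WSB mouse, while 12 of the 21 log2 fold changes lay above 0. In cholesterol synthesis 4 of 21 enzymes differed (19.0%). Nsdhl, Sqle and Fdft1 were 1.46, 1.26 and 1.25 times higher, and Sc5d fell from 15.7, 13.8 and 14.1 to 9.26, 9.60 and 10.2. That count was 2, 1 and 2 when B6 replicates 1, 2 and 3 were left out in turn, and 1, 1 and 1 for WSB replicates 1, 2 and 3. Of 48 lysosomal and proton pump genes Ppt1 rose and 5 fell (12.5%). Among the 5 were Atp6v0c, whose sum with copies did not pass, and the proteases Ctss and Ctsh, of which Ctss is also in the microglia list. The lysosomal count of 6 was 5, 2 and 2 when B6 replicates 1, 2 and 3 were left out in turn, and 2, 3 and 2 for WSB replicates 1, 2 and 3.

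Several lists that touch on ischemia held no gene that differed. None of 14 Bcl2 family genes, 19 genes of hypoxia sensing, 14 of collateral vessel formation and 10 of mitochondrial calcium uptake passed, where limma gave 1, 4, 5 and 1 at an unadjusted p under 0.05, and their medians lay between -0.10 and 0.04. Slc8a2, a sodium and calcium exchanger, was the 1 gene of 34 pumps, exchangers and ion entry channels to pass, and it was lower in WSB but passed in none of the 6 fits without 1 mouse. Of 34 tubulin and cytoskeleton genes Tuba1c was higher, though not with its 10 copies summed (log2 fold change 0.12, adjusted p = 0.481 by limma). Of 13 genes of the perineuronal matrix Adamts4 and Spock1 were lower (15.4%, against 5.63% of all members), Spock1 in 1 of the 6 fits without 1 mouse. Of 8 Toll-like receptors and adaptors at this level outside the excluded stretch, Unc93b1 and Irak2 were lower (25%). That count of 2 was the same in each of the 6 fits without 1 mouse. Among gene families defined by symbol, 14 of 271 Zfp genes (5.17%), 9 of 217 Slc genes (4.15%) and 10 of 180 Tmem genes (5.56%) differed, near the 5.63% of all members, and 2 of 174 genes with ubiquitin in the description did (1.15%). Genes that have only a Gm number differed more often, 14 of 77 (18.2%), but several of these have near-identical copies. With copies summed, rises such as those of Gm11361, Gm4737 and Gm20075 turned to log2 fold changes of -0.98, -0.27 and -0.011. Gm14295, Gm14305 and Gm14326 stayed lower and past the threshold. In all, 1037 members were in 1 or more of 48 lists and 94 of them differed, so that 560 of the 654 genes lay outside every list.

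Genes that differed lay on every autosome and on X. Among these chromosomes the share was highest on chromosomes 17 (47 of 559 members, 8.41%) and 13 (35 of 417, 8.39%) and lowest on 10 (16 of 557, 2.87%) and X (13 of 388, 3.35%). Of the 654, 248 (37.9%) stood in 60 runs of at least 3 that followed each other at gaps of up to 1 Mb, without regard to the members between them that did not differ. The run with the most such genes spanned chromosome 17 from 32905071 to 36042747, where 16 of 95 members differed, from Cyp4f14 to H2-T22, with the histocompatibility genes and C4b among them. On chromosome 2 from 118861954 to 122749475, 11 of 58 members differed, among them Pla2g4e and B2m. On chromosome 17 from 6106437 to 8344113, 7 of 12 members differed, among them Tmem181a, which fell from 8.76, 8.49 and 9.84 to 1.98, 1.83 and 2.45 FPKM, and the pair Tagap1 and Tagap, near-identical in sequence, of which the first fell from 11.02, 11.7 and 11.3 to 3.12, 4.12 and 3.69 and the second rose from 0.145, 0.177 and 0.183 to 2.38, 2.23 and 2.15. Another run, on chromosome 18 from 37320381 to 38339003, held Pcdhb5, Pcdhb9, Pcdhb13 and Pcdhga3, all lower. They were the 4 of 19 clustered protocadherins, adhesion proteins that give neurons their surface identity, to pass (21.1%, against 5.63% of all members). Pcdhga3 shares up to 1971 exon bases with other genes of its cluster, which overlap it and were not counted as copies. One of these, Pcdhgb8, not a member, shares 1968 bases and passed the other way, from a mean of 0.303 FPKM in B6 to 1.65 in WSB. The protocadherin count of 4 was 1, 1 and 1 when B6 replicates 1, 2 and 3 were left out in turn, and 2, 1 and 1 for WSB replicates 1, 2 and 3.

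The genes that differed had a median level of 6.91 FPKM against 7.43 for those that did not, and a median gene length of 3374.5 against 4513 bases. Across members the log2 fold change had a Spearman correlation of 0.13 with GC content and -0.12 with gene length, over 11600 and 11611 genes that share the 6 libraries. Levels in the C3H mice, which were left out of the fit of WSB against B6, are given here as a description with no test. For genes high in B6 and low in WSB, C3H stood at 66.2 ± 7.97 FPKM (SD, n = 3) for Cryab and 14.2 ± 3.43 for Ly6c1, near B6, and at 0.244 ± 0.0128 for Pttg1 and 0.988 ± 0.217 for H2-D1, near WSB. Myoc and Fcrls lay between, at 1.97 ± 0.552 and 5.12 ± 0.381. Among genes higher in WSB, C3H had 406 ± 5.05 FPKM for Scg5 and 16.5 ± 2.78 for Gabra2, near WSB, and 2.07 ± 0.348 for Cwc22 and 1.40 ± 0.314 for Aldh3b2, near B6.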

How the data were processed

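Cortex RNA of 3 B6 and 3 WSB male mice was compared, with replicates named from the sample titles. The authors trimmed paired-end reads of 150 bp with Cutadapt and counted them on genes with HTSeq. The submitters' processing notes also name STAR and DESeq2. Versions and the aligner's settings, including how reads that fit several places were treated, are not given in the sources used here. The deposited values are FPKM per gene and mouse, and every per-sample column was assigned (0 unused). Read numbers were recovered from FPKM and gene length. Coordinates are those of the table, identical to GENCODE M21 (GRCm38) for 11100 members. The part of sequence differences between WSB and this reference in the values was not tested.

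Genes whose mean over the 6 libraries reached 0.1 FPKM were tested with limma 3.58.1 (R 4.3.3; lmFit, eBayes with trend, two-sided) on log2(FPKM + 0.1), so fold changes of low genes are understated, with Benjamini-Hochberg adjustment over all 20746. A gene differed at an adjusted p under 0.05. Copies were found with blastn 2.17.0 (megablast, longest transcript against all transcripts), and a gene and its copies were summed as reads on the gene's own length and refitted among all genes. Overlaps between genes used bedtools 2.31.1, and figures matplotlib 3.10.9. The fit was tested on 20 sets of simulated data, each with 200 changed genes, a median of 20726 tested. It found 98.6% of 4-fold, 51.7% of 2-fold and 4.7% of 1.5-fold changes, so small differences were mostly missed in the simulated sets. The simulated spread between mice was assumed and not estimated from these mice, and fewer genes changed than differed here. The share of real differences that was missed is therefore not known from it. No set test was run. Counting error alone was considered for the limit of 3 reads.

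The members and the 48 lists were chosen with earlier results of these data known. Named genes were the 10 largest changes each way, the 5 smallest p-values, up to 3 genes a list, runs of 3 or more neighbours, and 2 genes on each side of the 1 FPKM limit, of which 1 is not reported here. Tpm3, the genes said to be picked after their values were seen, all names of list members that passed, Adad2 and Mael were added outside this rule. The alternatives changed the pseudocount (0.01 or 1), the filter (none, or 1 FPKM), the scaling (median ratios, total reads, or a GC trend removed) and the model (eBayes without a trend, voom weights, C3H mice in the same fit, a replicate block), or left out a mouse. Summed copies and leaving out genes with copies were chosen after seeing the data.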

Additional observations from a re-analysis of the deposited data

How the results depend on the processing

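The strain comparison lost many calls when a mouse was left out or when the prior on the spread did not depend on the level. Leaving out 1 mouse gave 294 to 396 members past the threshold in place of 654, with 121 to 150 higher in WSB and 173 to 251 lower, where fewer samples entered the fit. Without a trend in eBayes there were 324 members, 116 higher and 208 lower, and the cause was not tested. The mice share replicate numbers, but same-numbered mice did not all deviate together (r = -0.029, 0.165 and -0.089 for numbers 1, 2 and 3), so the numbers do not pair them, and with the replicate block 389 members passed, 165 higher and 224 lower, 360 of them among the 654. The other settings gave from 499 (no filter) to 853 (voom weights). Rescaling to total reads gave 676, of which 49.3% were higher in WSB against 40.2%. Of 297 named genes 91 passed in every setting. Over 5346 pairs of a named gene and a setting, 4039 kept their direction past the threshold and 1294 kept it but did not pass. Direction turned only with copies summed, in 13 genes. The log2 fold change was then -0.32 for Eno1b, -0.064 for Tpm3-rs7, -0.011 for Gm20075, -0.27 for Gm4737, -0.98 for Gm11361, 0.72 for mt-Nd3, 0.12 for Atp6v0c, 0.056 for Psmb5, -0.79 for Tagap, 0.092 for Rps2, 0.071 for Oser1, -0.055 for Gpr137b and 0.052 for Hmga1, since the copies' reads are part of the value.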
